A study of Sus scrofa with 12 samples.

Results

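Near-perfect small RNA and target duplexes were taken as the interactions whose alignment score was at most 3 in the deposited PAREsnip tables of pig loin muscle. The alignment score is a mismatch penalty, with 0 for a perfect duplex and 4.5 the highest value listed. An interaction was counted once per library, small RNA, chromosome and listed start plus cleavage position. Of 2935 interactions in 12 libraries, 592 were near-perfect and 2343 scored above 3. Without miR-4331-5p, which accounted for 296 of the near-perfect interactions, 296 of 2233 remained.

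Small RNAs bound to Argonaute proteins find their targets by base pairing. Where a microRNA (miRNA) pairs with a transcript along nearly its whole length, a slicing Argonaute can cut the transcript inside the duplex, a mode that is common in plants and rare in animals. Most animal miRNAs pair mainly through their seed and act without slicing, so a duplex with few mismatches is the kind in which a cut end would be looked for first in degradome data.

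PARE (parallel analysis of RNA ends) captures the 5′ ends of uncapped, cut transcripts, and PAREsnip pairs those ends with small RNAs that could have directed the cut. The 12 libraries came from the loin of female Hampshire, Pietrain and Polish Large White pigs, kept and fed alike and slaughtered at 100 ± 2 kg, with day 180 in the labels. Each breed had 2 libraries titled low MM, with a light shear force, and 2 titled high MM, with a heavy one. The labels leave MM unexplained, though muscle mass is the subject of the title. For the 4 Pietrain libraries the tab names of the deposited workbook give the opposite MM group to the titles, so the tab-name reading is given beside the MM comparison. The labels do not say that the replicates are separate animals, so p-values describe the spread between these samples. In bulk tissue, fewer cells of a type and less RNA per cell cannot be told apart. Of 11 skeletal muscle markers, 7 were among the listed targets of all interactions and 2 to 7 were listed in each library. The fibroblast and immune lists each had 2 listed genes, the adipocyte and blood lists 1, and the endothelial and Schwann lists 0. The tables hold 19855 rows, from 699 to 2949 a library. They list only interactions with a deposited p-value of at most 0.05, so an unlisted interaction was not measured at 0.

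Some features of the tables touch every count below. Hampshire low MM replicate 1 stood apart: 1931 of its 2031 rows were an unbroken run with the score 4.5, over 24 chromosomes and 49 small RNAs. Of its 854 windows that other libraries also list, 46.3% had a higher score there than elsewhere, against 0% to 2.73% of windows with another score in the other 11 libraries. Of its 66 named interactions also seen elsewhere, 20 were near-perfect elsewhere and 1 was near-perfect in it. It held 2 of the 592 members. The within-library tests leave it out, and pooled values without it stand beside those that rest on its interactions above 3. Also, 1 cut fragment often matched many genome positions, and the tables divide its abundance among them, so the number of positions was taken as the fragment abundance over the weighted abundance. The 592 members held 209 distinct combinations of library, small RNA, fragment abundance and number of matching positions, and 470 members shared theirs with another member. Such a combination is called 1 fragment below, although different fragments can carry the same values: adding the factor of the authors gave 212 combinations. The largest had 38 members, all from unnamed small RNA NA71/NA72 in Hampshire high MM replicate 2, with an abundance of 20 at 473 positions. In addition, the fragment abundance was a multiple of 20 in all 296 members of miR-4331-5p and in 97.6% of the unnamed members, but in 12 of the 84 members of other named miRNAs. No source used here explains that step, so abundance was treated as a score and not as reads. Which strand was cut is also unknown for 559 of the members, which are listed on both strands. The other 33 were all mitochondrial.

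Perfect duplexes were few. A score of 0 was listed for 5 interactions, 1 for 6, 2 for 89, 2.5 for 26 and 3 for 466. Coordinates are those of the files, and no source used here names their genome build. The muscle-enriched miRNA miR-133a-3p paired without a mismatch at chromosome 6, position 106998923, where the files list MIB1, a ubiquitin ligase of Notch signalling, together with MIR133A-2, a gene of the miRNA's own precursor. That interaction had a fragment abundance of 1 and category 4 in both libraries that list it, Pietrain high MM replicate 2 and Polish Large White low MM replicate 2. PAREsnip's category runs from 0, where the cut end is the single highest of its transcript and has more than 1 read, to 4, for a single read. The other 3 perfect duplexes belonged to unnamed small RNAs on chromosome 12, at positions 34885741, 34888330 and 34899544. Each was listed with the entries RF00012 and RF01848 and the gene TEX14 together, so the listing does not tell which of them was cut. The copies at 34888330 and 34899544 were category 0 with a normalized weighted abundance of 0.313 and shared a fragment of abundance 6 that matched 8 positions, in Hampshire high MM replicate 2.

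At a score of 1, miR-378 was the member in the most libraries. It was listed at chromosome 14, position 47804817, in 3 of 4 libraries beside the entry RF01892, with a normalized weighted abundance of 0.0570 in Pietrain low MM replicate 1, 0.244 in Pietrain low MM replicate 2, 0.169 in Pietrain high MM replicate 1 and 0.00913 in Polish Large White low MM replicate 1. Its fragment abundance was 1 to 3 in those 4 libraries, and its category went from 0 in Pietrain low MM replicate 2 to 4 in the 2 libraries with an abundance of 1. The other score of 1 was miR-4331-5p, at JOSD1, a deubiquitinase, in Pietrain high MM replicate 2, and at UNC45A, a myosin chaperone, in Pietrain low MM replicate 2. The JOSD1 end was category 0 with a normalized weighted abundance of 0.789 and 6 matching positions, and the UNC45A end was category 2 with 0.330 and 4 positions.

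The near-perfect class was dominated by a single miRNA. Of the 38 small RNAs in it, 26 were named and 12 unnamed, against 127 and 53 among all interactions. MiR-4331-5p supplied 50.0% of the near-perfect interactions and 17.3% of those above 3, other named miRNAs 14.2% and 33.4%, and unnamed small RNAs 35.8% and 49.3%. Seen the other way, 42.2% of all miR-4331-5p interactions were near-perfect, 9.70% of those of other named miRNAs and 15.5% of those of unnamed small RNAs. MiR-4331-5p was in the class in all 12 libraries and made up 30.1% to 100.0% of its members there. In Hampshire low MM replicate 1 and Polish Large White high MM replicate 1 it was the only contributor, with 2 and 22 members. No other named miRNA contributed in Hampshire high MM replicate 1 or Polish Large White high MM replicate 2 either. Unnamed members were uneven, from 0 in 3 libraries to 58 in Pietrain low MM replicate 2.

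**Figure D1:**
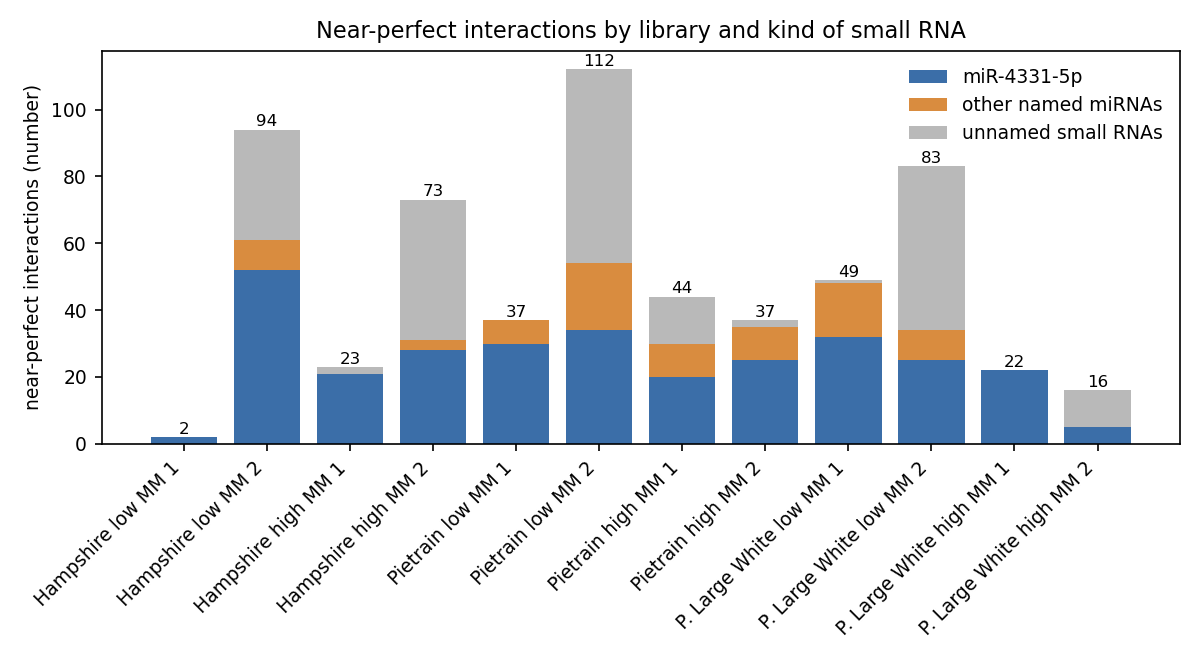
Number of near-perfect interactions (vertical axis) in each of the 12 libraries, stacked by kind of small RNA, with the library total above each bar. The lowest total is 2, for Hampshire low MM replicate 1, and the highest 112, for Pietrain low MM replicate 2, and 3 libraries have no unnamed member.

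Within libraries, the share of interactions assigned to a named miRNA was higher among near-perfect interactions, and that excess was lost when miR-4331-5p was left out. It was higher in 9 of the 11 libraries with at least 5 near-perfect interactions, which leaves out Hampshire low MM replicate 1, by 12.6 percentage points ± 10.4 (SD, n = 11; exact sign-flip permutation test, two-sided, p = 0.00586, Benjamini-Hochberg adjusted p = 0.0117 over 4 within-library contrasts). Near-perfect named shares ran from 31.2%, the value of Polish Large White high MM replicate 2, to 100.0%, and the shares above 3 from 13.4% in Hampshire high MM replicate 2 to 96.2%, so the 2 ranges overlapped. Without miR-4331-5p, 9 libraries had enough members, and the difference was -2.73 percentage points ± 14.0 (SD, n = 9; 4 of 9 libraries higher; exact permutation test, adjusted p = 0.559). When positions on 1 fragment were counted once, with all small RNAs, it was 1.82 (n = 9, exact permutation test, adjusted p = 0.574).

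After miR-4331-5p, the named miRNAs with the most members were let-7a, let-7i-5p and miR-98 with 9 each, miR-574-3p with 8, miR-378 and miR-95 with 7 each, and let-7c and miR-208b with 5 each. The next named entries had 2 members each. The let-7 and miR-98 group, which shares a seed, had 33 near-perfect interactions, 5.57% of the class, and 54 above 3, 2.30%. All 33 lay in the mitochondrial gene ND5, at 2 adjacent positions, while nuclear let-7 interactions were absent from the class. The muscle-enriched miRNAs contributed 8 near-perfect interactions (1.35%) and 55 above 3 (2.35%), through miR-133a-3p, miR-206 and miR-208b. The miR-378 list had 9 (1.52%) and 18 (0.768%), and the miR-23, miR-24 and miR-27 list 4 (0.676%) and 31 (1.32%). The miR-10 and miR-125 group had 1 (0.169%) and 14 (0.598%). The miR-17/92, miR-30 and miR-29 lists had 0 near-perfect interactions, against 15 (0.640%), 7 (0.299%) and 1 (0.0427%) above 3. These counts are not independent, since related miRNAs can be credited with the same fragment.

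Cut ends at near-perfect duplexes had a higher normalized weighted abundance than the others in most libraries, a difference that did not pass the test once miR-4331-5p was left out. Normalized weighted abundance is the fragment abundance divided by its matching positions and multiplied by a factor of the authors. That factor fell into a lower and a higher class, and some libraries held both. Pietrain low MM replicate 2 had 197 interactions in the lower class and 218 in the higher. The higher class held 40.4% of members and 62.3% of interactions above 3, so the contrast can mix unlike factors within a library. Over all members the median normalized weighted abundance was 0.0344, with a range of 0.000559 to 8.35. Over interactions above 3 it was 0.0177, with a range of 0.000611 to 16.7. The near-perfect median was the higher of the 2 in 9 of 11 libraries, by 0.90 ± 0.99 on the log2 scale (SD, n = 11; exact sign-flip permutation test, adjusted p = 0.0117). The differences ran from -0.02 in Pietrain high MM replicate 1 and 0 in Hampshire high MM replicate 2 to 2.69 in Polish Large White low MM replicate 1 and 2.84 in Polish Large White high MM replicate 2. Without miR-4331-5p the difference was 1.00 ± 1.15 (SD, n = 9; 7 of 9 libraries higher) and missed the threshold after adjustment in the exact permutation test (p = 0.0156, adjusted p = 0.0625). Within miR-4331-5p alone it was -0.087 (n = 11, exact permutation test, adjusted p = 1). On raw fragment abundance it was 0.94 (exact permutation test, adjusted p = 0.0625), and among interactions whose abundance was not a multiple of 20 it was 0.61 (n = 8, exact permutation test, adjusted p = 0.258). Within the higher factor class alone it was 0.81 (n = 8, exact permutation test, adjusted p = 0.125). Within the lower class it was 1.15 (n = 6, exact permutation test, adjusted p = 0.0625). On weighted abundance before the factor it was 1.24 (n = 11, exact permutation test, adjusted p = 0.0117). When positions on 1 fragment were counted once it was 1.22, higher in 9 of 9 libraries (exact permutation test, adjusted p = 0.0156). The difference missed the threshold in 10 of 31 alternative settings, in 1 of which it was negative.

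**Figure D2:**
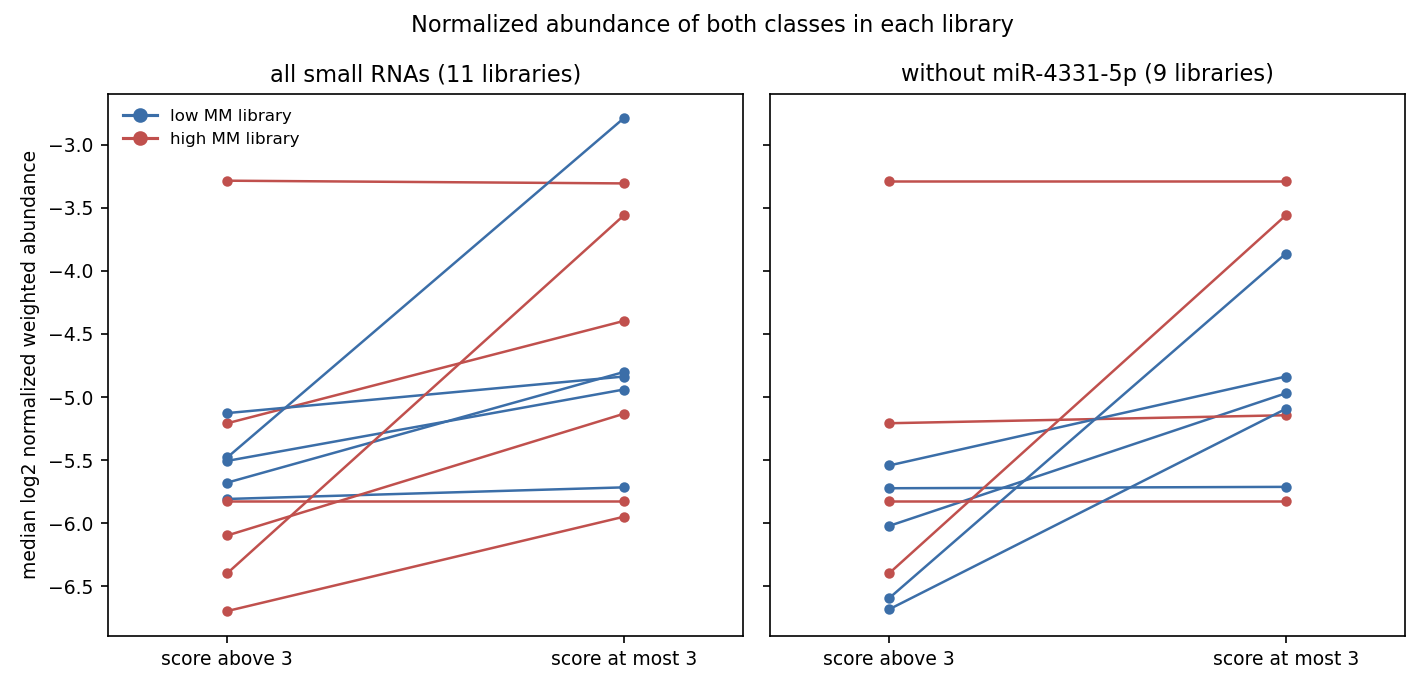
Median log2 normalized weighted abundance (vertical axis) of interactions scoring above 3 and at most 3, joined for each library, with all small RNAs on the left (11 libraries) and without miR-4331-5p on the right (9 libraries). Lines rise in 9 of 11 libraries on the left and 7 of 9 on the right, and several are almost flat.

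Most near-perfect ends were in the middle categories. Category 0 or 1 was held by 49 of the 592 members, 8.28% (95% Wilson interval 6.32% to 10.8%), and by 302 of the 2343 others, 12.9% (11.6% to 14.3%). Without Hampshire low MM replicate 1 the shares were 8.14% and 12.3%. These intervals treat interactions as independent, which shared fragments are not, and cover counting error only. Category 2 was held by 42.9% of members and 32.1% of the others, category 3 by 44.8% and 46.0%, and category 4 by 4.05% and 9.09%. All 24 members in category 4 came from named miRNAs other than miR-4331-5p. Category 4 means a single read, and no other kind of small RNA had a member with a fragment abundance of 1. The within-library difference in categories 0 and 1 was -4.44 percentage points ± 11 (SD, n = 11; exact permutation test, adjusted p = 0.272), with 2 libraries higher. Hampshire high MM replicate 1 stood apart, where 39.1% of 23 near-perfect interactions were in category 0 or 1 against 14.3% of the others. Without that library the difference was -7.37 percentage points (exact permutation test, adjusted p = 0.0156). It turned positive when the threshold was lowered, to 2.47 at a score of 2.5 and 0.838 at a score of 2, and when category 2 was counted as strong, to 7.96. Without miR-4331-5p the difference was -7.28 ± 9.45 (SD, n = 9; exact permutation test, adjusted p = 0.0938). The authors' deposited p-value was 0 for 65.4% of members and 19.3% of the others. PAREsnip's p-value takes the alignment into account, so it was not tested. Rows are listed only at a deposited p of at most 0.05, so the 2 score classes may have entered the tables under unlike conditions. That limit also touches the contrasts in category and abundance.

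Few members rested on ends that match 1 genome position. A single matching position was listed for 12 members (2.03%, against 2.52% of the others). Among them, in Polish Large White low MM replicate 1, miR-450a was listed at CREM, a cAMP-responsive transcription factor, in category 1 with an abundance of 2. In Polish Large White low MM replicate 2 miR-125a was listed at MMP14, a membrane-bound matrix metalloproteinase, in category 0 with an abundance of 2. MiR-4331-5p had single-position members at USP54 in Pietrain low MM replicate 2 (score 2, category 0, normalized weighted abundance 4.89), at NDST1, a heparan sulfate enzyme, in Polish Large White low MM replicate 1 (score 2.5, category 1, 0.730), at DEGS1, a ceramide desaturase, in Pietrain high MM replicate 2 (category 2, 0.612), and at an unannotated position of chromosome 6 in Hampshire high MM replicate 2 (category 0, 8.35). None of these 6 was near-perfect in a second library. With more matching positions, miR-4331-5p was category 0 at LAMA2, the laminin chain of the muscle basement membrane (chromosome 1, position 33772195), in Hampshire high MM replicate 1 (score 2, 1.36, 6 positions), where Hampshire high MM replicate 2 listed the same end in category 2 (2.78, 3 positions).

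Among unnamed small RNAs, the largest normalized weighted abundance was 8.13, for NA44 at TSPAN16, a tetraspanin, in Hampshire high MM replicate 1 (category 0, 1 position). NA15 followed with 2.26 in Pietrain high MM replicate 1, at EMC7, a subunit of the membrane protein complex of the endoplasmic reticulum, in category 0, and at a gene without a symbol on chromosome 6 in category 2. NA71/NA72 had 1.39 at BCDIN3D and NCKAP5L and at an unannotated position of chromosome 9. All 5 rested on an abundance of 20.

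Recurrence over libraries was followed for named miRNAs only, since unnamed ones may be numbered per library. Near-perfect duplexes were listed at 261 combinations of named miRNA and position, of which 48, 18.4% (95% Wilson interval 14.2% to 23.5%), were near-perfect in 2 or more libraries. Above 3 it was 148 of 868, 17.1% (14.7% to 19.7%). Without miR-4331-5p the shares were 15 of 42, 35.7% (23.0% to 50.8%), and 92 of 555, 16.6% (13.7% to 19.9%). For miR-4331-5p alone they were 33 of 219, 15.1%, and 56 of 313, 17.9%. Of the 15 recurrent combinations without miR-4331-5p, 4 are 1 ND5 position credited to related miRNAs, and no test was made. Leaving out Hampshire low MM replicate 1 gave 35.7% and 15.2% without miR-4331-5p.

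MiR-4331-5p at PPP1R2, which encodes an inhibitor of protein phosphatase 1 (chromosome 13, position 132460444), was near-perfect in 11 libraries, 5 low MM and 6 high MM, with a score of 3. Its normalized weighted abundance was lowest in Polish Large White high MM replicate 2 (0.0117) and highest in the low MM replicate 1 of that breed (0.0518), with a median of 0.0167. Before the factor of the authors, fragment abundance over positions was 60 over 1850 in the first and 2480 over 1747 in the second. That factor differs between libraries and within some of them, so comparisons of normalized values across libraries, here and below, rest partly on it. The fragment matched 1197 to 1947 positions, so its abundance of 60 to 2480 is spread over many loci. At FKBP5, a co-chaperone of steroid receptors (chromosome 7, position 31442309), the same miRNA had a score of 2 in 9 libraries, with normalized weighted abundances from 0.0127 to 0.224, a median of 0.0359, and 112 to 1821 positions. DSP, the desmosomal protein desmoplakin (chromosome 7, position 4935282), was listed in 8 libraries with values from 0.0127 to 0.0518, and ATP2A1, the fast-fibre calcium pump of the sarcoplasmic reticulum (chromosome 3, position 18564131), in 6 with values from 0.0117 to 0.0349. In Hampshire low MM replicate 2 PPP1R2, FKBP5, DSP and ATP2A1 had the same abundance of 340 at 1704 positions and the same normalized value, with category 0 at DSP and category 3 at the other 3 genes. The deposited values do not separate these 4 interactions in that library.

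Fewer matching positions backed a position of chromosome 1, 57218020, near-perfect for miR-4331-5p in 6 libraries at 6 to 27 positions, with PM20D2 listed there in 4 of them. Its normalized weighted abundance was 0.166 in Hampshire low MM replicate 1 (category 0), 0.178 and 0.124 in Pietrain low MM replicates 1 and 2, 0.102 in Pietrain high MM replicate 2, and 0.731 and 0.0780 in Polish Large White low MM replicates 1 and 2. Low MM accounted for 5 of those 6 libraries by the titles and 4 by the tab names. HBEGF, a growth factor of the EGF family, was listed in 5 libraries at 24 to 69 positions. It had 0.339 in Hampshire high MM replicate 1 and 0.288 in Polish Large White low MM replicate 1, both category 0. In the 3 Pietrain libraries it had 0.0190 to 0.0647. Before the factor of the authors, the Hampshire library had 20 over 24 positions and the Polish Large White library 200 over 25.4, the reverse order. CCDC12 had the same abundance and number of positions as HBEGF in 4 of those 5 libraries. C12orf45 was listed in 5 libraries (0.0371 to 0.182). The position of ITPRIP, which binds the inositol trisphosphate receptor, was near-perfect in 4 (0.0359 to 0.15). The gene was listed there in 3 of them (0.0359 to 0.0973). ST7L and WNT2B, a Wnt ligand, share a position that was listed in 4 (0.0117 to 0.0344).

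Outside miR-4331-5p, the most recurrent near-perfect end lay in ND5, a mitochondrially encoded subunit of respiratory complex I, at mitochondrial position 14460. It was credited to let-7a, let-7i-5p and miR-98 in 8 libraries each and to let-7c in 4, always with score 3 and category 2, and with the same abundance for every name in a library. The normalized weighted abundance was 0.0555 in Hampshire low MM replicate 2, 0.0146 in Hampshire high MM replicate 2, 0.0687 and 0.0326 in Pietrain low MM replicates 1 and 2, 0.0111 and 0.0489 in Pietrain high MM replicates 1 and 2, and 0.0293 and 0.0620 in Polish Large White low MM replicates 1 and 2. Low MM accounted for 5 of the 8 libraries and high MM for 3, and the groups overlapped. Hampshire low MM replicate 1 listed the end too, at 4.5, inside its run of constant scores.

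MiR-208b, a miRNA of slow and cardiac muscle, was near-perfect in 5 libraries at an end on chromosome 10, position 19029146. It was listed with TFB2M, a mitochondrial transcription factor, in all 5 and also with CNST in 1. Its normalized weighted abundance was 0.0284 in Hampshire low MM replicate 2, 0.0932 in Pietrain low MM replicate 1, 0.205 and 0.139 in Pietrain high MM replicates 1 and 2, and 0.0375 in Polish Large White low MM replicate 1. The 2 Pietrain high MM libraries, low MM by the tab names, had the highest normalized values and category 1. The other 3 libraries had category 3. That order of values rests on the factor of the authors. Before it, fragment abundance over positions was 20 over 33 and 20 over 34 in those 2 Pietrain high MM libraries. Pietrain low MM replicate 1 had 60 over 40 and Polish Large White low MM replicate 1 had 40 over 39. Hampshire low MM replicate 2 had 20 over 45. MiR-378 was near-perfect at an X-chromosome position listed with ATP1B4 in 3 libraries, and also with SEPT6 in 1 of them, with an abundance of 1 or 2. MiR-95 was near-perfect at HHATL in 3 libraries, with an abundance of 2 in each, all low MM by the titles and 2 low and 1 high MM by the tab names. It was also near-perfect at 2 positions of ENO3, the muscle enolase, in 2 libraries, both low MM by the titles and 1 of each group by the tab names.

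**Figure D3:**
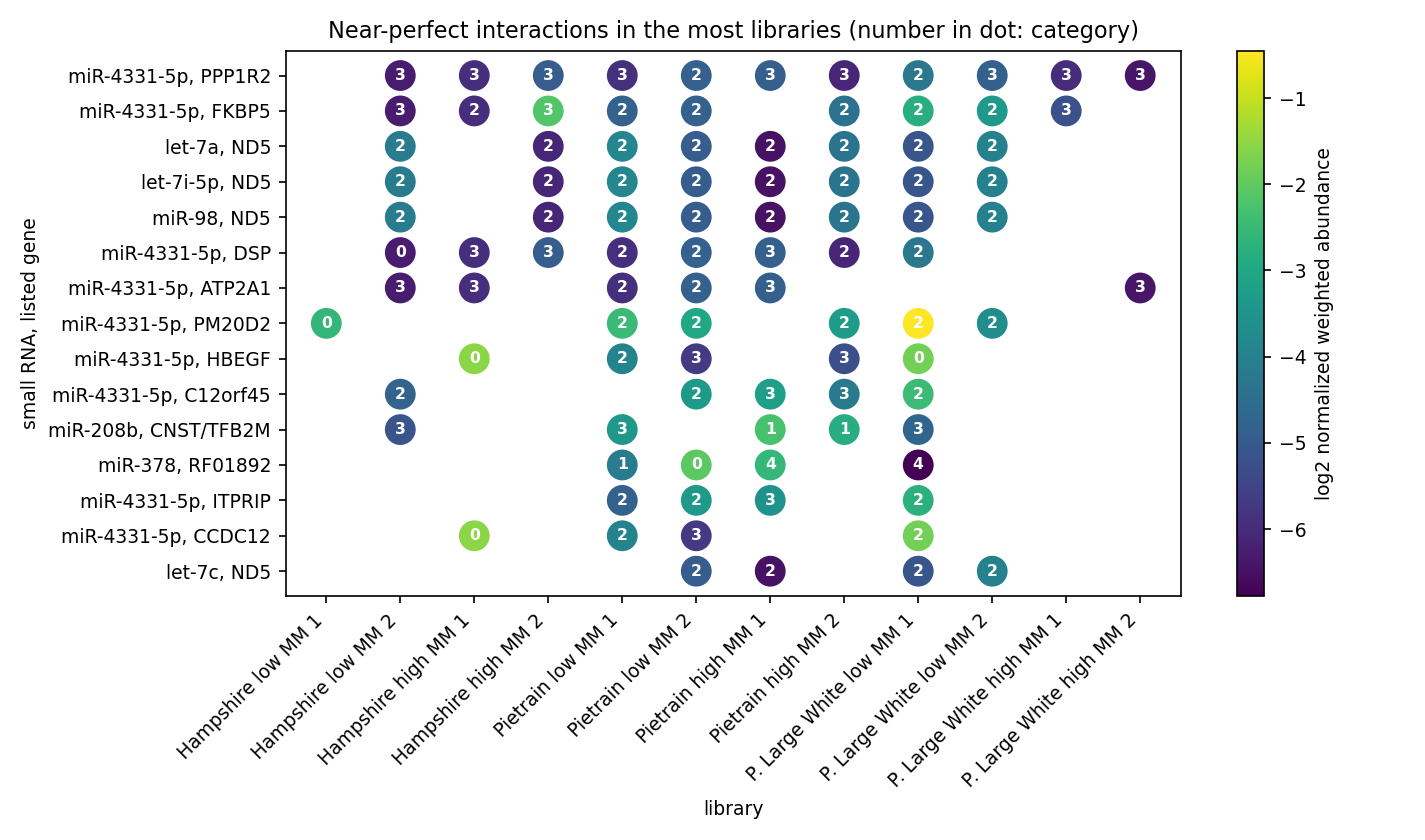
The 15 near-perfect interactions of named miRNAs in the most libraries (rows) by library (columns). Dot colour is the log2 normalized weighted abundance, and the number in a dot is the category. The 4 ND5 rows carry the same values in each library, and the top row, PPP1R2, is filled in 11 libraries.

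The targets of near-perfect duplexes were 334 genes, with every gene or entry listed at a position counted. Of these, 113 (33.8%) were also targets above 3, where they made up 9.51% of 1188 genes. Without Hampshire low MM replicate 1 the overlap was 100 genes, 30.03% of 333 and 8.90% of 1124. A single library listed 265 of the 334 (79.3%), against 80.5% of the genes above 3. A gene was listed for 75.8% of members and 71.5% of the others, and the within-library difference was 3.41 percentage points ± 9.75 (SD, n = 11; exact permutation test, adjusted p = 0.272). Without miR-4331-5p it was 7.11 ± 13.3 (SD, n = 9; exact permutation test, adjusted p = 0.198).

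By function, near-perfect targets held about the same share of muscle and control lists as targets above 3. Of the 21 lists, 24 near-perfect target genes (7.19%) and 86 genes above 3 (7.24%) were in any. Without miR-4331-5p the shares were 17 of 168 genes (10.1%) and 79 of 976 (8.09%). Common sarcomere and Z-disc genes, a list of 26, were 7 of the 334 near-perfect targets (2.10%) and 10 of the 1188 targets above 3 (0.842%). All of the 7 but MYOT were also targets above 3, and 4 of the 7 were there through miR-4331-5p only. Without miR-4331-5p the list had 3 near-perfect targets (1.79%) and 10 above 3 (1.02%). MYOZ1, a Z-disc protein that binds calcineurin, was listed in 3 libraries, and MYOM2, TMOD4 and NEB, all structural proteins of the sarcomere, in 1 each. ACTA1, skeletal actin, was near-perfect for miR-129a-5p in 1 library, DES, the intermediate filament desmin, for miR-122 in 1, and MYOT, a Z-disc protein, for the unnamed NA21 in 1. Fast-fibre genes were ATP2A1, MYBPC2, a myosin-binding protein, and MYLK2, a myosin kinase, 3 of a list of 14 and 0.898% of the near-perfect targets, against 8 genes and 0.673% above 3. Slow-fibre genes were 0 of 10, against 4 genes and 0.337% above 3.

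The other lists held 1 or 2 near-perfect targets or none, so each near-perfect share rests on at most 2 genes. Of nuclear oxidative genes, 2 of 34 were near-perfect targets (0.599%, against 8 genes and 0.673% above 3). They were BDH1, a ketone body enzyme, in 3 libraries, all low MM by the titles and 2 low and 1 high MM by the tab names, and BCAT2, which breaks down branched-chain amino acids, in 1. Without miR-4331-5p the oxidative shares were 1.19% and 0.512%. Glycolysis and glycogen genes were 2 of 22, ENO3 and PGM1 (0.599%, against 12 genes and 1.01%). Calcium handling genes were 1 of 21 (0.299%, against 4 genes and 0.337%), PPP3CB, a calcineurin subunit, in 3 libraries through unnamed small RNAs. Protein breakdown genes were 2 of 15 (0.599%, against 6 genes and 0.505%). They were PSMD2, a proteasome subunit, with miR-27b-3p in 2 libraries and category 0 in 1, and FBXO40, a muscle ubiquitin ligase component. Stress genes were 2 of 16, FKBP5 and BAG3 (0.599%, against 3 genes and 0.253% above 3). Mitochondrially encoded genes were 1 of 13, ND5 (0.299%, against 6 genes and 0.505%). Matrix genes were 1 of 17, LAMA2 (0.299%, against 2 genes and 0.168%), and muscle growth signalling 1 of 18, MTOR (0.299%, against 4 genes and 0.337%). Myogenic regulators were 1 of 17, HDAC5 (0.299%, against 3 genes and 0.253%), and translation 1 of 15, EEF2 (0.299%, against 7 genes and 0.589%). The energy transfer, small RNA machinery, adipocyte, endothelial, blood, immune, fibroblast and Schwann lists had 0 near-perfect targets. Above 3 each of those lists held at most 0.253% of the targets. Without Hampshire low MM replicate 1 no near-perfect count of a list moved. Of genes on no list, MARC1, a mitochondrial reductase, was a near-perfect target in 4 libraries, in each through an unnamed small RNA.

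Near the threshold, the 466 interactions at a score of 3 and the 303 at 3.5 differed in make-up. MiR-4331-5p supplied 44.4% of the first and 6.27% of the second. Only 19 of its 406 interactions above 3 scored 3.5, and the rest scored 4 or 4.5. The median normalized weighted abundance was 0.0327 and 0.0271, and category 0 or 1 was held by 6.65% and 12.5%. The named interaction at 3.5 in the most libraries was miR-499-5p at CA3, the carbonic anhydrase abundant in muscle, in 10. Next, with 5 libraries each, came miR-208b at the CNST and TFB2M end, beside its near-perfect position, miR-328 at GNB1, a G-protein subunit, and miR-338-5p at 2 positions of COX7A1, a muscle subunit of cytochrome oxidase.

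The last comparison asked whether near-perfect duplexes differed between low and high MM loins, or between breeds. With all libraries neither difference passed its test. The near-perfect share of interactions in the 6 low MM libraries was 1.10% and 34.1% for Hampshire, 31.9% and 27.0% for Pietrain, and 14.9% and 34.4% for Polish Large White (replicates 1 and 2). In the high MM libraries it was 20.2% and 13.4%, 19.2% and 23.7%, and 16.3% and 7.96%. The lowest share had a 95% Wilson interval of 0.304% to 3.94% and the highest 28.7% to 40.6%. High minus low MM was -7.10 percentage points (23.9% ± 13.3 in low and 16.8% ± 5.56 in high MM, SD, n = 6 each; exact permutation test within breeds, two-sided, p = 0.278). The number of members differed by -27 (62.8 ± 40.9 and 35.8 ± 21.0, SD, n = 6 each; exact permutation test, p = 0.25). Breed means of the share were 17.2% for Hampshire, 25.5% for Pietrain and 18.4% for Polish Large White (n = 4 each; exact permutation test over 34650 partitions, p = 0.517).

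Hampshire low MM replicate 1, the library with constant scores, decided the MM call. Without it the low MM share was 28.5% ± 8.12 (SD, n = 5), 4 of whose 5 libraries lay above all 6 high MM libraries, and high minus low MM was -11.7 percentage points (exact permutation test, p = 0.0185). Without miR-4331-5p as well it was -11.4 (exact permutation test, p = 0.0278). With the scores of that library taken from other libraries where they list the same interaction, which gave it 21 members, it was -8.85 (exact permutation test, p = 0.12), and with the Pietrain groups by tab name and that library left out -5.81 (exact permutation test, p = 0.352). The factor that turns weighted into normalized abundance fell into 2 classes, split at 0.15, and it moved with MM by the titles. The lower class occurred in each of the 6 low MM libraries and in 1 of the 6 high MM ones. Of the near-perfect interactions, 327 of 377 in low MM libraries and 26 of 215 in high MM libraries were of that class. Within the higher class alone, 2 low MM libraries held no interaction. The near-perfect share there was 0% in both Hampshire low MM libraries, 14.2% in Pietrain low MM replicate 2 and 18.1% in Polish Large White low MM replicate 1, and 7.96% to 20.2% in the high MM libraries, a comparison that was not tested. By the tab names, Pietrain low MM replicates 1 and 2, which held the lower class, were high MM. Pietrain high MM replicate 1, which held none of it, was then low MM. MM and the factor class cannot be told apart by the titles, and they coincide less by the tab names.

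**Figure D4:**
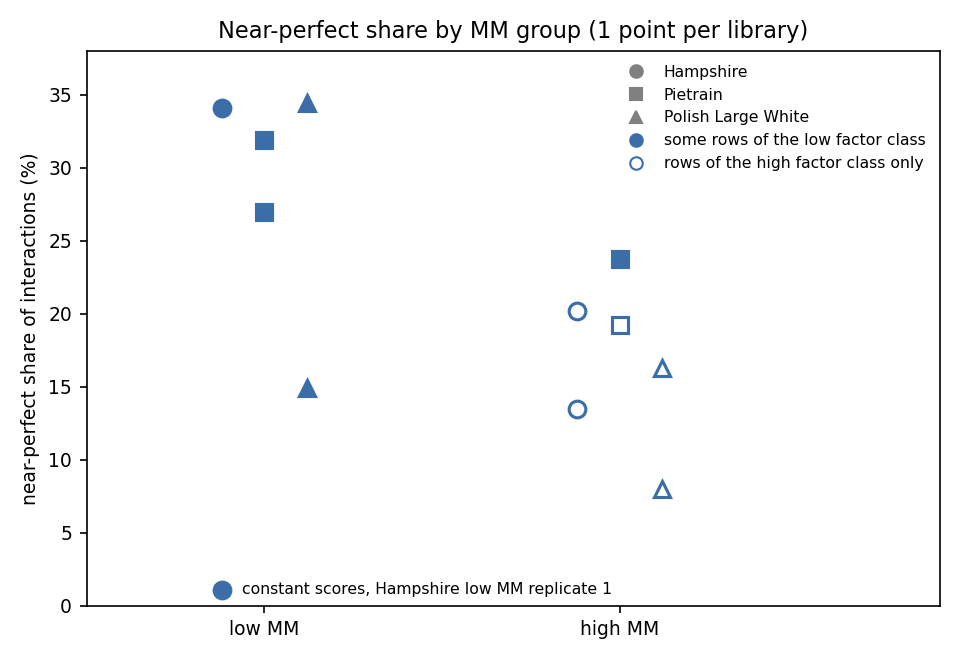
Near-perfect share of interactions (vertical axis, percent) in each library by MM group of the titles, with breeds as symbols. Filled symbols are libraries with some rows of the lower factor class and open symbols those with rows of the higher class only. The lowest filled point, 1.10%, is the library with constant scores, and 4 of the other 5 low MM libraries lie above every high MM library.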

How the data were processed

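The deposited tables are PAREsnip output for PARE libraries of loin total RNA (RNA integrity above 7, per the labels' protocols). The submitters' processing notes list the programs CASAVA 1.8.2 and FastQC. No source used here names the aligner, build, annotation, source of the small RNAs or filter on rows. Per the file headers, alignment score, category and fragment abundance are scores, the deposited p-value has 2 decimals and is at most 0.05, and weighted and normalized abundances are signal values scaled by the authors. Chickens appear in the design text, although the samples carry the label pig. Read depth is unknown.

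Values were computed in Python 3.11.15, pandas 2.3.3, numpy 2.4.6 and scipy 1.17.1 and drawn with matplotlib 3.10.9. A row without a score was left out. An interaction with rows on both sides of the threshold (42) counted as near-perfect, with values from its rows at or under 3, and category, score and p were its best. In Hampshire high MM replicate 2, 10 weighted values that read as dates were recomputed from the normalized value, none of them in a member. Of 339 gene IDs in members, 324 had a symbol and 294 matched the RefSeq-based name table. The tables hold no sequence of a small RNA or target, and no genome was used here, so duplexes are not printed.

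The unit of every test was the library. MM labels were exchanged within breeds, breeds were compared over all partitions, and class differences within a library had their signs flipped over libraries with at least 5 members, two-sided. Tests were checked on simulated libraries. Members and lists were chosen with earlier results of these data known. Interactions and genes were named by a rule: the 15 named interactions in the most libraries, those with the lowest scores, up to 10 in category 0 or 1, the 10 genes and 10 named miRNAs with the most, up to 4 genes a list, 5 unnamed members by abundance and 3 just outside the threshold. HHATL, ENO3, CREM, MMP14, DEGS1, NDST1, COX7A1 and the second miR-378 position were added after their values were seen. Replicate numbers did not pair libraries (correlations of listed genes from -0.031 to 0.027 over 1409 genes). Alternatives varied the threshold, unit of counting, small RNAs, categories, abundance scale, p-value, MM labels, factor class and libraries. A result among the single-position members is not reported here.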

Additional observations from a re-analysis of the deposited data

Results flagged for a closer look

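Of 58 groups of 4 to 6 libraries examined for a library far from the rest, 8 held one, where chance gives about 1 in 20. Pietrain low MM replicate 2 had 112 near-perfect interactions, against 37 to 44 in the other Pietrain libraries. Hampshire high MM replicate 1 had a category 0 or 1 share that was 24.8 percentage points higher among near-perfect interactions than among the others, against -11.7 to 0.332 in the other high MM libraries. In Polish Large White high MM replicate 2 the log2 normalized weighted abundance was 2.84 higher among near-perfect interactions, against -0.02 to 0.96 in the other high MM libraries. Without miR-4331-5p that difference was again 2.84 in this library, against 0 to 0.06 in the others. All 11 of its near-perfect interactions without miR-4331-5p belong to unnamed small RNA NA26, with an abundance of 20 at 85 positions, and they are 11 of its 16 members, so both differences rest on that 1 value of 0.0848. In Polish Large White low MM replicate 2 the named share was -3.97 percentage points different, against 12.9 to 14.2 in the other libraries of the breed.

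The remaining values were seen only without miR-4331-5p. Pietrain low MM replicate 1 had a log2 abundance difference of 2.73, against 0 to 0.06 in the other Pietrain libraries. Polish Large White low MM replicate 1 had a category 0 or 1 difference of 5.14 percentage points, against -13.3 to -8.26 in the other low MM libraries. In the same library the share with a listed gene was 31.8 percentage points higher among near-perfect interactions, against -3.36 to 4.17.

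The excess of named miRNAs among near-perfect interactions was larger in high than in low MM libraries by 12.7 percentage points (18.3 ± 7.19, SD, n = 6, and 5.66 ± 9.88, SD, n = 5; exact permutation test within breeds, p = 0.0185). Adjusted over the 10 such differences examined, p was 0.185 in the same exact permutation test. With the Pietrain groups by tab name the difference was 2.02 percentage points (13.5 ± 12.1, SD, n = 6, and 11.5 ± 9.23, SD, n = 5; exact permutation test, p = 0.731).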

How the results depend on the processing

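Of 161 recomputed values of the 7 tested results, 137 kept their direction and side of the threshold. For the log2 abundance difference, those that missed the threshold were 1.00 without miR-4331-5p, 1.06 at a score of at most 2, 0.94 on raw fragment abundance, 0.79 at a fragment abundance of at least 10, 0.63 at a deposited p of at most 0.02, 0.72 for named miRNAs without miR-4331-5p, 0.81 and 1.15 in the higher and lower factor class, and 0.61 where abundance was not a multiple of 20. With miR-4331-5p alone it was -0.087. The named-share difference was -2.73 without miR-4331-5p, 8.96 at a deposited p of at most 0.02 and 1.82 with fragments counted once. The category difference was 2.47 at a score of 2.5, 0.838 at 2, 7.96 for categories 0 to 2 and 2.59 in the higher factor class. The gene-share difference was -1.02 at the stricter p, -4.21 with fragments counted once and -1.02 for miR-4331-5p alone. High minus low MM was 21.3 members in the higher factor class, a count set by how the class is spread, since 5 of 6 high MM libraries lie in it whole and 2 low MM libraries hold none of it. It was -11.4 percentage points without miR-4331-5p and Hampshire low MM replicate 1. Recurrence was 35.7% without miR-4331-5p and 28.7% with table rows as the unit. The cause of these changes was not tested.

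Leaving out each library in turn gave -39.2 to -17.2 for the number and -11.7 to -5.0 percentage points for the share between MM groups, 6.11 to 13.9 between breeds, -7.37 to -3.25 for category, 0.70 to 0.99 for log2 abundance, 10.9 to 14.2 for the named share, 1.73 to 4.64 for the gene share and 14.5% to 19.8% for recurrence. The category call was made only without Hampshire high MM replicate 1, and the MM share call only without Hampshire low MM replicate 1.

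With replicate numbers as a block, the MM differences were -27 members and -7.10 percentage points (exact permutation test, p = 0.219 and p = 0.3125), higher in high MM in 2 of 6 pairs. The numbers do not pair the libraries. With the Pietrain groups by tab name they were -4.33 and -1.79 (exact permutation test, p = 0.88 and p = 0.806). At a score of at most 2.5, none of the named ND5, PPP1R2, DSP, PM20D2, CCDC12 or TFB2M interactions remained (0 libraries).

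Read depth is unknown, the tables keep only interactions with a deposited p of at most 0.05, and the small number of libraries and shared fragments limit every comparison. Alternatives on restored scores, fragments counted once, factor class, abundance step and the joint exclusions were chosen after seeing the data.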
